A study of Caenorhabditis elegans with 4 samples.

Results

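The genes described here make 2 kinds of small nuclear RNA, the snoRNAs and the spliceosomal snRNAs. A peak was taken when it shared at least 1 bp, on either strand, with a gene of biotype snoRNA or snRNA in the RefSeq gene table of assembly WBcel235. The deposited MSTR-1 table held 40 such peaks of 2664, and in the N2 table such peaks numbered 4 of 310. Of the 40, 33 lay over snoRNA genes and 7 over snRNA genes. Each peak lay over 1 gene of these biotypes, and each such gene with a peak lay under 1. Most peaks also lay over genes of other biotypes. The data are eCLIP, in which RNA crosslinked by UV to a protein is immunoprecipitated with it and sequenced, from lysates of whole young adult Caenorhabditis elegans at 25 °C, with a UV dose of 1.2 mJ/cm2. MSTR-1 CLIP has 2 libraries of worms carrying F22D6.2(on49[MSTR-1::3xFLAG]) I, called biological replicates by the design text, in which a 3xFLAG tag is fused to the protein that F22D6.2 encodes. The size-matched input is 1 library of that tagged genotype. N2 CLIP is 1 library of N2 worms without the tag, so it has no replicate. All 4 libraries share the stage, the temperature and the UV dose.

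snoRNAs pair with ribosomal RNA and other targets and guide enzymes that methylate ribose or isomerise uridine, within particles of the nucleolus. In worms many snoRNA genes lie inside the genes of other RNAs, often those of ribosomal proteins, and their RNA is cut from the spliced-out host sequence. The snRNAs are the RNA cores of the spliceosome. A related class in nematodes, the spliced leader RNAs, donates the leader that is joined to the start of many messenger RNAs.

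Values are scaled reads, the reads of a peak divided by the authors' size factor of each library, and whole reads were recovered from them. The labels do not tie the deposited columns to replicate 1 or 2, and the CLIP libraries are named A and B here. The 40 peaks held 3513 reads of library A, 5667 of library B and 2720 input reads, and the median peak had 33.5, 51 and 12.5. Over all 2664 peaks the medians were 15, 24 and 8 reads. The deposited fold is the sum of both CLIP libraries over the input and exceeds 1 at all 2664 peaks, so that the mean of the CLIP libraries can still lie below the input at a listed peak. Of 9 tissue markers chosen for whole worms, 8 had a peak, dpy-7 being the exception. A difference in the number of cells that make an RNA and one in its level per cell cannot be told apart in whole-worm lysates.

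Few genes of either kind were represented. Peaks lay over 33 of 346 annotated snoRNA genes (9.54%, exact 95% interval 6.66 to 13.1) and over 7 of 129 snRNA genes (5.43%, 2.21 to 10.9). None of the 30 sls genes, which make spliced leader RNAs, had a peak in either table, and neither had any of the 12 smy genes. The sls genes are counted among the 129 snRNA genes. So are the smy genes, except smy-2 and smy-3, which have biotype snoRNA. The share of 5.43% is therefore that of the biotype and not of spliceosomal snRNAs alone. Among snoRNA genes nested in a ribosomal protein gene, 12 of 23 were under a peak (52.2%, 30.6 to 73.2). Nested in another protein-coding gene it was 13 of 190 (6.84%, 3.69 to 11.4), and with no host 5 of 122 (4.10%, 1.34 to 9.31). Under a longer non-coding entry only, it was 3 of 11 (27.3%, 6.02 to 61.0). The intervals cover counting error only, and the level of each RNA in the worms was not measured beside these shares. The median length of snoRNA genes with a peak was 103 nt, and that of the 313 without one was 131 nt.

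Peaks differed in how they fitted the gene. In 21 peaks, 14 over snoRNA and 7 over snRNA genes, at least 50% of the peak lay inside the gene, and in the other 19, all over snoRNA genes, most of the peak lay outside it. The lengths left a gap between 197 and 304 nt, seen after the lengths were known. The 14 peaks of 304 to 516 nt reached far past the gene, and 11 of them lay in ribosomal protein genes. The peak over B0041.9, a snoRNA gene of 54 nt in rpl-4, was 445 nt long and reached 189 nt past one end of the gene and 202 nt past the other. The peak over C16D9.11, a snoRNA gene of 70 nt in rol-3, was 77 nt long and ended 2 and 5 nt outside it. In a wide peak most of the counted interval therefore lies outside the snoRNA gene, and the part of the reads that came from the snoRNA itself is not given in the deposited values. The peaks just inside the rule were those over K11C4.6, with 7 nt of overlap, and K04D7.17, with 14 nt. The nearest peak left out lay 11 nt from R151.13, in rpl-6, with a mean fold of 0.689, and the next lay 14 nt from F25H2.14, in tct-1, with a mean fold of 1.11.

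**Figure D1:**
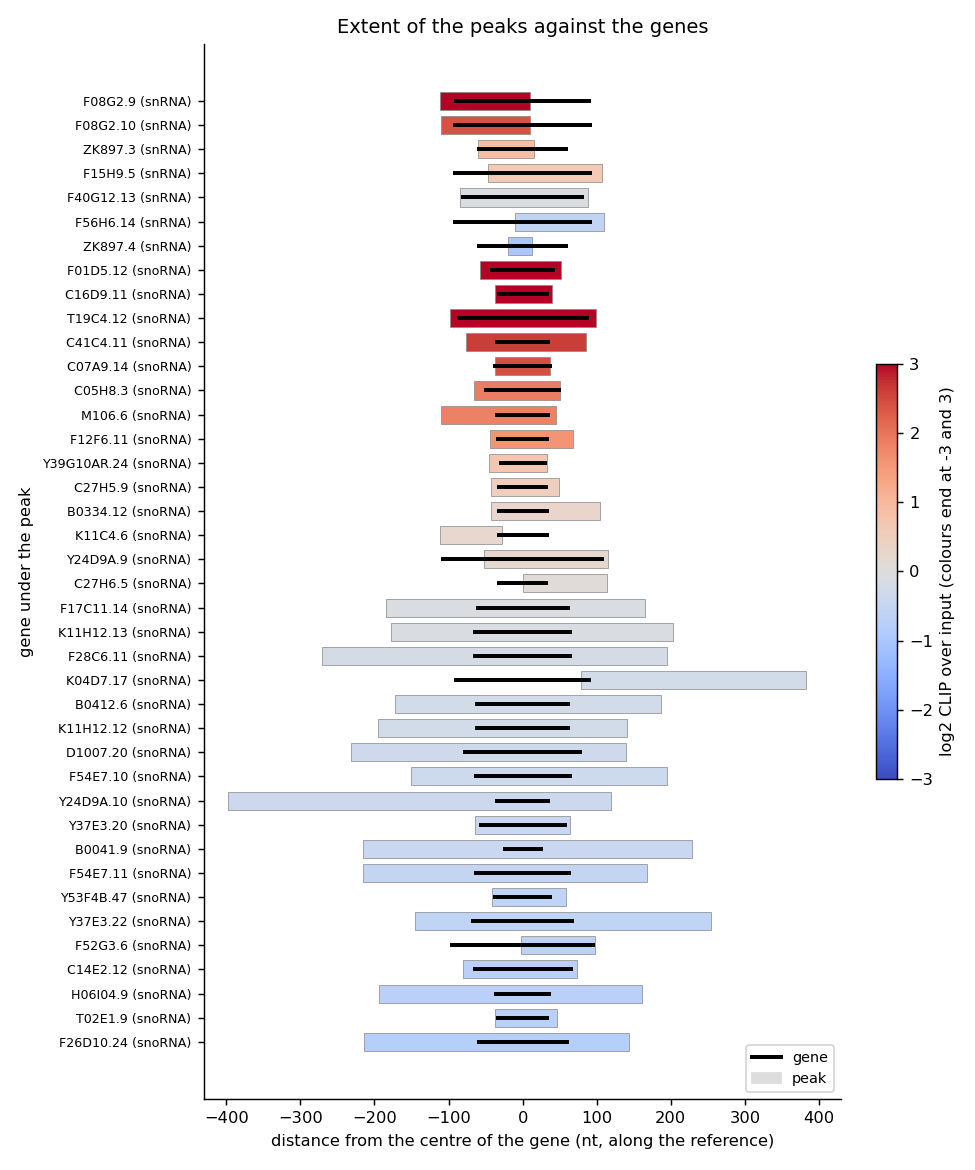
Each row is 1 of the 40 peaks, drawn as a bar to scale against its snoRNA or snRNA gene (black line), with distance in nt from the centre of the gene and colour giving log2 CLIP over input. The 14 wide peaks of 304 to 516 nt carry the pale blue or grey of log2 values from -0.79 to -0.08, and the dark red bars are short.

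CLIP was compared with the input at each peak with limma, fitted across all 2664 peaks, on log2(scaled reads + 1), with Benjamini-Hochberg adjustment. The median of all peaks on this scale was 0.45, so values are also given relative to it. Among the 40 peaks 5 were higher than the input and 1 was lower, and 34 did not pass. Over all peaks 12.7% were called higher and 1.76% lower, so the count of 5 higher is near the background. At an unadjusted p under 0.05, 6 of the 40 were higher and 5 lower, beside 18.2% and 4.73% of all peaks. Both CLIP libraries lay above the input at 15 of the 40 peaks and below it at 15, with the input between them at 10. Over all peaks both libraries were above at 53.0% and below at 22.0%. The median log2 CLIP over input was -0.09, which is -0.54 relative to all peaks.

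The calls moved with the setting, as they did over all peaks. With limma and no variance trend 0 of the 40 passed in either direction, as did 0.0% of all peaks, although 380 of these were higher at an unadjusted p under 0.05. edgeR on the recovered reads called 4 higher and 0 lower (10.5% and 1.24% of all peaks), and DESeq2, which gave an adjusted p to 23 of the 40, called 4 and 0 (11.5% and 0.411% of the 1218 peaks with one). Other scalings lowered the median of all peaks from 0.45 to 0.09 (DESeq2's size factors), 0.06 (TMM) and -1.48 (column totals). DESeq2's size factors gave 4 higher and 7 lower (8.6% and 7.47% of all peaks), TMM 4 and 12 (8.86% and 9.05%) and column totals 3 and 23 (2.14% and 51.1%). A pseudocount of 0.5 gave 5 and 1 (12.8% and 1.88%), one of 5 gave 4 and 0 (12.1% and 1.65%), and a minimum of 20 reads, met by 34 of the 40, gave 5 and 1 (15.3% and 2.19% of 2281 peaks).

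The 5 higher peaks were all over snoRNA genes, and 4 of these are nested in protein-coding genes that do not encode ribosomal proteins. F01D5.12 (chromosome II, 14018341 to 14018449, 88 nt, in F01D5.10) had 41 and 167 CLIP reads (libraries A and B) against 1 input read, or 44.5, 109 and 1.44 scaled reads. Both immunoprecipitations stood far above the input, and library B was 2.46 times library A. The mean CLIP value was 53.4 times the input (95% interval for the counting error of the input 9.58 to 2108), with a log2 change of 4.86 (SE 0.50, limma adjusted p = 3.01e-20). C16D9.11 (chromosome V, 8228898 to 8228974, in rol-3) had 24 and 91 reads against 1, or 26.1, 59.6 and 1.44 scaled reads. Its libraries did not overlap with the input either, and library B was again the higher. The mean fold was 29.7 (5.33 to 1173), with a log2 change of 4.05 (SE 0.60, limma adjusted p = 6.52e-10). A further non-coding entry, F01D5.14, lies under the peak of F01D5.12, and their reads cannot be told apart. Without the 5 peaks over a gene other than a member and its host, this one among them, 4 were higher. The others are the peaks of K04D7.17 (rack-1), Y24D9A.10 (Y24D9A.11), T02E1.9 (spe-12) and F08G2.9 (ins-37). With a single input read behind each, the folds of F01D5.12 and C16D9.11 are known only to within their wide intervals.

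T19C4.12 had the smallest adjusted p of the 5 and the most reads. This snoRNA gene of 178 nt (peak on chromosome V, 11175520 to 11175716) lies within the span of gpa-1, a gene of a G protein alpha subunit, and under the longer non-coding entry T19C4.17. It had 253 and 391 CLIP reads against 16 input reads, or 275, 256 and 23.1 scaled reads. Both libraries gave nearly the same value, 11.9 and 11.1 times the input. The mean fold was 11.5 (7.08 to 20.1), with a log2 change of 3.47 (SE 0.28, limma adjusted p = 1.37e-32, edgeR adjusted p = 3.86e-18).

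C41C4.11 is a snoRNA gene of 75 nt outside protein-coding genes, under a peak of 162 nt on chromosome II (8107157 to 8107318) that reached 39 and 48 nt past its ends. Its scaled reads were 54.3, 132 and 12.98 (50, 201 and 9 reads), so that library B was 2.43 times library A and both exceeded the input. The mean fold was 7.16 (3.77 to 15.7), with a log2 change of 2.62 (SE 0.37, limma adjusted p = 1.22e-10). With libraries scaled to column totals its log2 change was 0.61 and did not pass (adjusted p = 0.14). The fifth, C05H8.3 (103 nt, in ckk-1, the gene of a calmodulin-dependent kinase kinase), had 14 and 35 reads against 3 and a mean fold of 4.41 (1.51 to 21.4). Its limma adjusted p was 0.042, and it did not pass edgeR on the recovered reads (adjusted p = 0.13) or limma with TMM scaling (0.12). F01D5.12, C16D9.11 and T19C4.12 passed under all 4 scalings, with log2 changes of 3.21, 2.42 and 1.43 with column totals, the lowest of them.

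Other short snoRNA peaks lay above the input in both libraries without passing the test. M106.6, in mix-1, a gene of condensin and dosage compensation, had 9 and 26 reads against 2 (mean fold 4.65, 1.29 to 38.4, limma adjusted p = 0.17). F12F6.11, with no host, had 8 and 7 reads against 1 (mean fold 4.60). C07A9.14, in ncx-7, had 11 and 2 reads against 0. Counting that input as the floor of 3 reads, its mean fold was 1.53, with limma adjusted p = 0.72. With the exact Poisson limit of the input count, the lower limit was 1.25. Library A carried the mean, with 11.9 scaled reads against 1.31 in library B. The peaks over Y39G10AR.24, C27H5.9 and B0334.12 had 11 to 18 reads in each CLIP library against 4 to 8, and mean folds of 1.85, 1.53 and 1.26. Their log2 changes of 0.72, 0.50 and 0.29 became -1.15, -1.42 and -1.66 with column totals, and that of B0334.12 -0.08 with DESeq2's size factors and -0.12 with TMM.

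**Figure D2:**
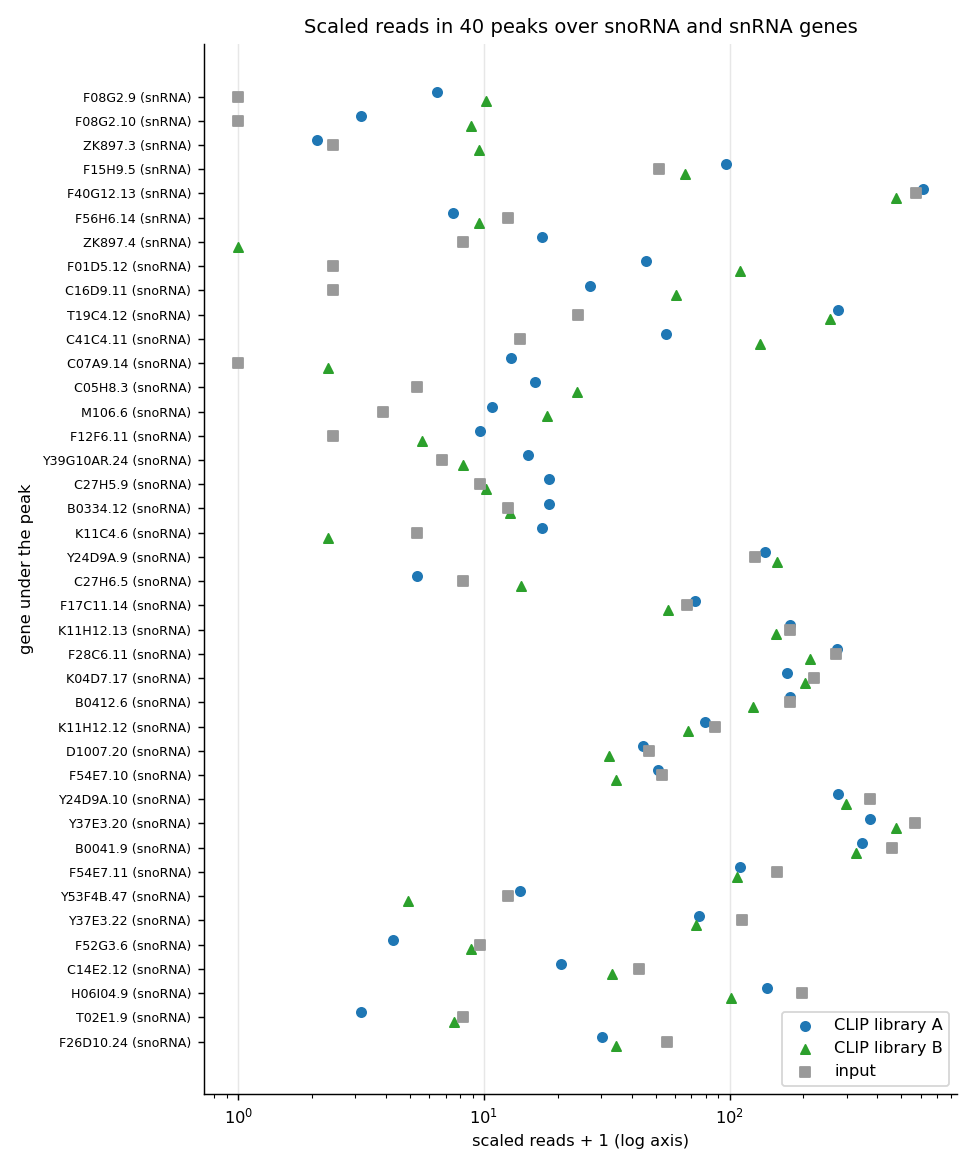
Scaled reads + 1 (log axis) of the 40 peaks in CLIP library A (circles), CLIP library B (triangles) and the input (squares), 1 row a gene, ordered by log2 CLIP over input within snRNA and snoRNA genes. At F01D5.12, C16D9.11, T19C4.12 and C41C4.11 both CLIP symbols lie well to the right of the input, and lower in the plot the 3 symbols lie close together or the input lies to the right.

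The 12 snoRNA genes nested in ribosomal protein genes lay near or below the input. Of their peaks 0 were higher, 1 was lower and 11 did not pass (limma; 0 higher and 3 lower at an unadjusted p under 0.05, beside 18.2% and 4.73% of all peaks, and 0 in either direction with edgeR). Their median log2 CLIP over input was -0.33, or -0.78 relative to all peaks, and the values ran from -0.72 to 0.22. These peaks were among the deepest, with 40 to 317 reads in library A, 48 to 500 in library B and 32 to 316 in the input. H06I04.9 (77 nt, in rps-27A, peak on chromosome III, 3068331 to 3068685) had 141, 100.2 and 196 scaled reads. Both libraries were under the input, at 0.72 and 0.51 of it. Its mean fold was 0.615 (0.520 to 0.733), with limma adjusted p = 0.0498, which edgeR did not pass (adjusted p = 0.074).

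Of the hosts, 3 held a pair of snoRNA genes with peaks. In rpl-15, K11H12.12 and K11H12.13 had mean folds of 0.838 and 0.942, and in rps-12, F54E7.10 and F54E7.11 had 0.803 and 0.693. In rpl-7A the wide peak over Y24D9A.10 (516 nt) had a mean fold of 0.768, and the peak of 167 nt over Y24D9A.9, of which 97.0% lay inside that gene of 221 nt, had 1.17. Y24D9A.9 had 139, 155 and 125 scaled reads, and it was the only one of the 12 with both libraries above the input, although its log2 change of 0.22 became -0.17 with DESeq2's size factors, -0.21 with TMM and -1.85 with column totals. Of the others, B0041.9 in rpl-4, F28C6.11 in rpl-26 and B0412.6 in rps-29 had mean folds of 0.737, 0.896 and 0.857.

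The peaks were set beside others of the same kind of host. A further 129 peaks over ribosomal protein genes touch no snoRNA or snRNA gene. Their median log2 CLIP over input was -0.37, beside -0.33 for the 12. Of the 129, limma called 3 higher and 25 lower, where 12.7% and 1.76% of all peaks were called. In 9 cases the host had a further peak to compare with, and the snoRNA peak minus the median of these ranged from -0.59 to 0.53, above 0 in 5. The host of F01D5.12 differed: the other peak of F01D5.10 had a log2 change of 1.67, and the snoRNA peak lay 3.19 above it. The hosts of C16D9.11, T19C4.12 and C05H8.3 (rol-3, gpa-1 and ckk-1) had no other peak in the MSTR-1 table.

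**Figure D3:**
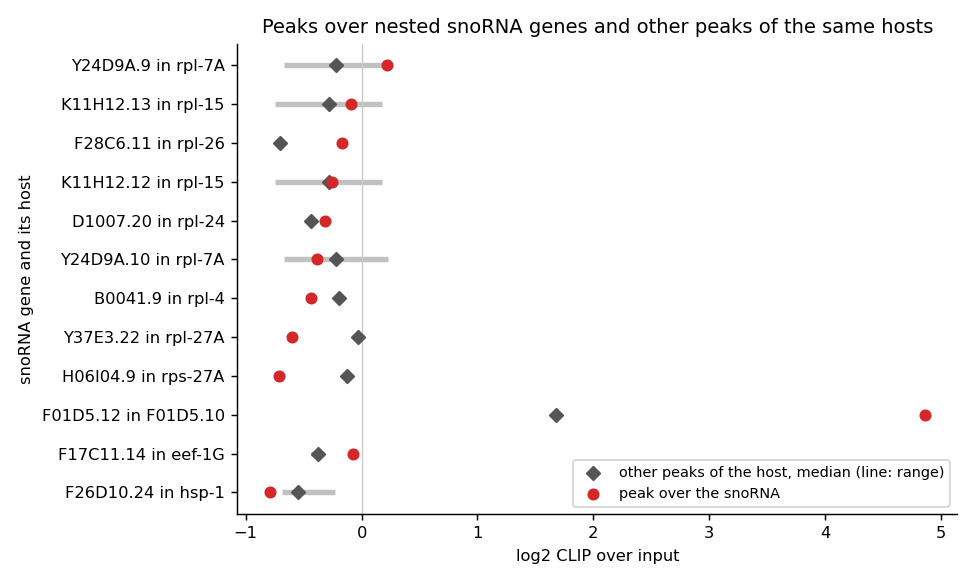
Log2 CLIP over input of the peak over each nested snoRNA gene (red) beside the median (diamond) and range (grey line) of the other peaks of the same host, for the 12 cases with another host peak. In ribosomal protein genes the red points lie from 0.53 above to -0.59 relative to the diamonds, and F01D5.12 stands at 4.86 against 1.67.

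The deepest snoRNA peak also lay below the input. Y37E3.20 (119 nt, in pcyt-2.1, the gene of an enzyme of phospholipid synthesis) was matched closely by a peak of 128 nt on chromosome I, with 343 and 724 CLIP reads against 392 input reads. Its scaled reads were 372, 474 and 565, both libraries below the input, with a mean fold of 0.749 (0.678 to 0.829, limma adjusted p = 0.21). F26D10.24, in the Hsp70 gene hsp-1, had the lowest mean fold of the snoRNA peaks, 0.572 (29.3, 33.4 and 54.8 scaled reads, limma adjusted p = 0.21). F17C11.14, in eef-1G, a translation elongation factor gene, stood at 0.955. The peak over K04D7.17 also covered part of the neighbouring gene rack-1, with 4.61% of it inside the snoRNA gene, and had a mean fold of 0.848.

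Independent snoRNA genes, with no longer gene around them, gave low or shallow peaks. There were 5, of which 0 passed in either direction (limma, and 0 also at an unadjusted p under 0.05). Over all peaks 12.7% were higher and 1.76% lower (18.2% and 4.73% unadjusted), so 0 of 5 is near the background. The peak over C14E2.12 had 18 and 49 reads against 29 and a mean fold of 0.617 (0.430 to 0.922). T02E1.9 had only 2 and 10 reads against 5, with a mean fold of 0.605 (0.259 to 1.86). Y53F4B.47 had 12 and 6 reads against 8. F52G3.6, which lies under the longer non-coding entry C30E1.9, had 3 and 12 reads against 6 and a mean fold of 0.642. F12F6.11 was the independent gene with the highest fold.

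The snRNA peaks, 7 in all, were 0 higher and 0 lower, and none passed at an unadjusted p under 0.05 either (limma, and edgeR called 0). Over all peaks 12.7% were higher and 1.76% lower, so 0 of 7 is near the background. The deepest of all 40 peaks was that over F40G12.13 on chromosome V (14267541 to 14267713), with 565 and 728 CLIP reads against 397 input reads. It covered the whole gene of 165 nt and ended 2 and 6 nt outside it. Its scaled reads of 613, 477 and 573 put library A above and library B below the input, and the mean fold was 0.952 (0.863 to 1.05, log2 change -0.08, SE 0.21, limma adjusted p = 0.88). The input thus fell between the CLIP libraries. The gene table does not give its class. Its length of 165 nt is shared by 7 annotated snRNA genes, 1 of them with a peak, and the placement of reads among genes of similar sequence was not examined.

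Another 4 snRNA peaks lay over genes of 185 or 187 nt, and all of them covered the same end of it relative to the strand listed for the peak. Counted along that strand, they began 14 to 19 nt before the gene and ended inside it, at position 140 in F15H9.5, 104 in F56H6.14, 104 in F08G2.10 and 102 in F08G2.9. The gene table gives no strand, and all 7 mitochondrial peaks are listed on the minus strand, so which end of the RNA this is was not settled. Of the 14 snRNA genes of 187 nt 3 had a peak, and of the 2 of 185 nt 1 had one. F15H9.5 (in sri-17) had 95.5, 64.9 and 50.5 scaled reads, both libraries above the input, and a mean fold of 1.59 (1.14 to 2.28, limma adjusted p = 0.22). F08G2.9 and F08G2.10 had 5 and 14, and 2 and 12 reads, against 0 in the input. Counting that input as the floor of 3 reads, the mean folds were 1.69 and 1.16, and neither passed (limma adjusted p = 0.43 and 0.74). With the exact Poisson limit of the input count, the lower limits of these folds were 1.37 and 0.943. F56H6.14 (in F56H6.2) had 6 and 13 reads against 8, and its mean fold of 0.651 (0.331 to 1.51) lay on the other side of the input.

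The last 2 snRNA genes, ZK897.3 and ZK897.4, are each 122 nt long and lie within the span of unc-31, a gene of neurosecretion. The CLIP libraries disagreed at both. ZK897.3 had 1 read in library A and 13 in library B against 1 in the input. ZK897.4 had 15 reads in library A and 0 in library B against 5, under a peak of 33 nt. Neither gives a usable fold, with standard errors of 2.37 and 1.54 on the log2 scale.

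**Figure D4:**
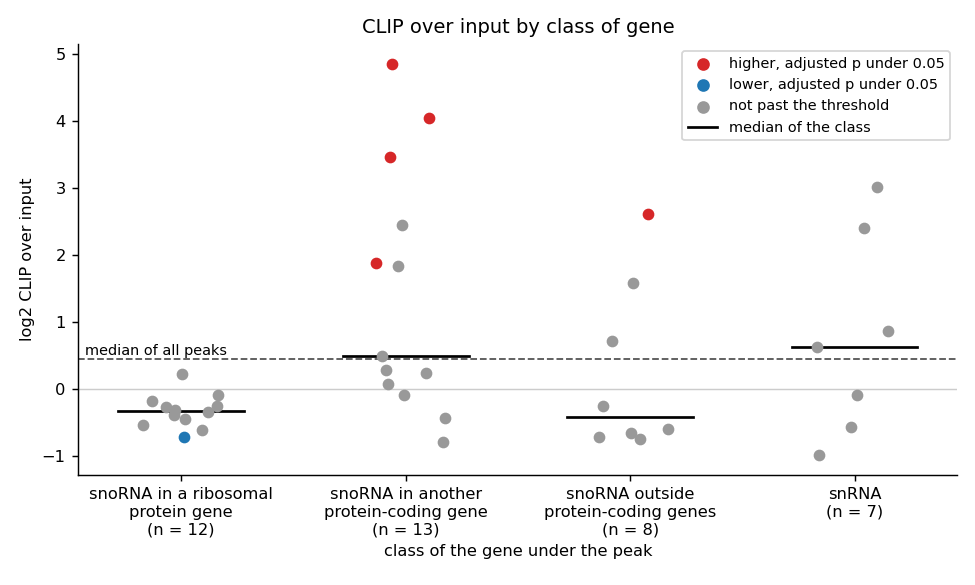
Log2 CLIP over input of each peak by class of gene, with the median of each class (black line) and of all 2664 peaks (dashed line). The 12 snoRNA peaks in ribosomal protein genes lie between -0.72 and 0.22, and the 13 in other protein-coding genes spread from -0.79 to 4.86.

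Set side by side, the classes overlapped widely. The median log2 CLIP over input was -0.17 for the 33 snoRNA peaks and 0.63 for the 7 snRNA peaks, or -0.62 and 0.18 relative to all peaks. The snRNA median rests on 2 peaks without an input read. It was 0.21 with these set against the floor of 3 input reads and -0.08 without them. Relative to all peaks it was -0.17 without library A, 0.56 without library B and -0.18 over peaks with no further gene. Calls were 5 higher and 1 lower among snoRNA and 0 and 0 among snRNA peaks, beside 12.7% and 1.76% of all peaks. Since peaks are not replicates, no test was made between classes.

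Nested genes were set against independent ones by span, since the gene table holds neither introns nor strand. A gene was nested when a longer gene of another biotype spans it, which holds for 34 of the 40. Their median was 0.00, against -0.42 for the 6 independent genes. All 6 calls were among the nested. Over all peaks 12.7% were higher and 1.76% lower, so 0 of 6 independent peaks is near the background. The difference rested on how hosts were defined: with protein-coding hosts only, 29 nested and 11 other peaks had medians of -0.09 and -0.08. Among nested snoRNA genes the 13 peaks in protein-coding genes other than ribosomal ones had 4 higher and 0 lower, with values up to 4.86. The 12 in ribosomal protein genes had 0 and 1, where 12.7% and 1.76% of all peaks were called. The medians of these classes were 0.50 and -0.33, or 0.05 and -0.78 relative to all peaks.

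N2 worms carry no FLAG tag, and their CLIP peaks show what comes down without it. N2 peaks overlapped 4 of the 40 MSTR-1 peaks (10.0%, exact 95% interval 2.79 to 23.7), beside 8.75% of all MSTR-1 peaks. At 3 of them the N2 peak lay on the snoRNA gene, and at F28C6.11 it lay in rpl-26 outside the gene, with an N2 fold of 1.05. No snRNA gene had an N2 peak. Folds from the N2 table use its own size factors, and were not tested against those of MSTR-1.

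The N2 peaks included the snoRNA genes with the highest MSTR-1 fold and with the smallest adjusted p. F01D5.12 had 12 N2 reads against 1 input read, an N2 fold of 34.4 (6.17 to 1357), beside an MSTR-1 mean fold of 53.4 over the same single input read. T19C4.12 had 41 N2 reads against 16, an N2 fold of 7.34 (4.52 to 12.8), beside 11.5. At both, N2 CLIP lay above the input on the authors' scaling, with 1 library and no test. The same holds for every N2 peak named here. With column totals the N2 folds were 3.89 and 0.830. C14E2.12 had 31 N2 reads against 29, an N2 fold of 3.06 (2.13 to 4.57), where MSTR-1 CLIP stood at 0.617. The deposited MSTR-1 fold sums both CLIP libraries and the N2 fold uses 1, so these sides of the input are not comparable. One more N2 peak, over Y53F4B.48 on chromosome II, had 11 reads against 9 (N2 fold 3.50, 1.84 to 7.65), and no MSTR-1 peak overlapped it.

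C41C4.11 and C16D9.11 had no N2 peak. At their MSTR-1 fold they would have given 22.5 and 10.4 N2 reads with the authors' scaling, and 48.3 and 22.2 with column totals, against 11 reads in the shallowest N2 peak. The N2 reads at these places are not listed, so a lower N2 level was not measured.

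Genes that encode the protein partners of these RNAs gave no call. Peaks over 6 of 8 snoRNP protein genes, the core of the modifying particles, numbered 11, with 0 higher and 0 lower and a median log2 CLIP over input of -0.59. Among them the 3 peaks of fib-1, the gene of the methyltransferase fibrillarin, had mean folds of 0.649, 0.805 and 0.592, and that of snu-13, the gene of a protein of snoRNPs and of the U4 snRNP, had 0.774. Of 7 Sm protein genes, which encode the ring around snRNAs, 2 had peaks, over snr-1 (mean folds 1.44 and 0.838) and snr-4 (1.62). Of 14 genes for other spliceosome proteins 5 had peaks, 6 in all with 0 calls, among them uaf-2, a gene of the small U2AF subunit, with 46 and 21 reads against 14 (mean fold 1.58), and snrp-200, a gene of a spliceosomal helicase, with 8 and 22 against 5 (1.60). The 8 Lsm genes and the 8 genes of the spliced leader particle and snRNA transcription had no peak. Over these lists limma at an adjusted p under 0.05 called 0 of 20 peaks, beside 12.7% higher and 1.76% lower over all peaks, with 0 at an unadjusted p under 0.05 and 0 by edgeR.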

How the data were processed

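Per the labels' protocols the libraries are eCLIP of whole-worm lysate. The submitters' processing notes list cutadapt, UMI-tools, STAR and deepTools without versions. The peak caller and the genome build were not given in the sources used here. The authors deposited a signal per peak and library, the reads divided by 1 size factor per library, and a fold (ratio) of summed CLIP over input. All values were whole multiples of 1 step (100% within 0.02 of a read), which gave the reads in peaks: 2438775, 3592308 and 408945 in the MSTR-1 table (libraries A, B and input), and 934439 and 302551 in the N2 table (N2 CLIP and input). The control column was read as the input.

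Peaks were placed by position on the WBcel235 gene table, leaving out 15363 piRNA genes. That table holds no strand, so hosts on either strand were counted. limma 3.58.1 (R 4.3.3) with a variance trend was fitted to log2(scaled reads + 1), on which shallow peaks show less than their full change. The single input is taken to have the spread of the CLIP libraries. Each peak's variance was taken almost wholly from a trend over all peaks. The p-values therefore do not measure how far that peak's own CLIP libraries agreed. At F01D5.12 the log2 ratio of library B over A was 1.28, and the SE of its log2 CLIP over input was 0.50. At T19C4.12 these values were -0.10 and 0.28. edgeR 4.0.16 (279 peaks higher and 33 lower) and DESeq2 1.42.0 on the recovered reads were alternatives. Fold intervals are exact Poisson limits for the input count and leave out the counting error of CLIP reads. Folds over 0 reads are set against a floor of 3 reads per library, which is not an exact limit.

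The members, gene lists and naming rule were chosen with earlier results of these data known. The rule named all snRNA genes with a peak, snoRNA genes with most CLIP reads (8), the highest (5) and lowest (5) mean fold, a call or an N2 peak, and 2 genes per list. Others named were chosen after their values were seen. No sequence is shown, since no genome was used here.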

Additional observations from a re-analysis of the deposited data

Results flagged for a closer look

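C14E2.12 on the X chromosome lay on opposite sides of the input in the tagged and untagged worms. Both MSTR-1 libraries were below it (19.5 and 32.1 scaled reads against 41.8, mean fold 0.617), and the N2 library was above it in its own table (52.5 against 17.1, N2 fold 3.06), with 29 input reads in both tables. The difference was not tested, since N2 has 1 library and the tables were scaled separately. The deposited folds also differ in kind. That of MSTR-1 sums both CLIP libraries and was 1.23 here, so their mean could lie below the input. That of N2 uses 1 library, and every N2 fold given here was above 1 on the authors' scaling (1.05 to 34.4). Places below the N2 input may thus go unlisted, so the opposition cannot be read as a difference between the worms. With column totals the N2 fold was 0.346, so the opposition holds on the authors' scaling and not on that one.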

How the results depend on the processing

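Against 5 higher and 1 lower, column totals gave 3 and 23, limma without a trend 0 and 0, DESeq2's size factors 7 lower and TMM 12 lower, and 0 were lower with edgeR, DESeq2, a pseudocount of 5 or only peaks at least 50% inside the gene. The snoRNA median of -0.17 became -2.24 with column totals, -0.57 with DESeq2's size factors, -0.60 with TMM and 0.61 for peaks at least 50% inside the gene, and ran from -0.18 to 0.011 leaving out 1 CLIP library. The snRNA median of 0.63 became -1.42, 0.24 and 0.20 under these scalings and -0.32 with at least 20 reads, and ran from 0.36 to 0.91 leaving out 1 CLIP library. The same scalings moved the median of all peaks from 0.45 to -1.48, 0.09 and 0.06. Nested minus independent, 0.42, became 0.55 with DESeq2, 0.29 with at least 20 reads, 0.26 over no further gene, 1.385 for peaks at least 50% inside the gene and -0.0067 with protein-coding hosts only, and ran from 0.042 to 0.19 leaving out 1 CLIP library. With column totals the N2 folds were 3.89 at F01D5.12, 0.396 at Y53F4B.48, 0.830 at T19C4.12 and 0.346 at C14E2.12. Signs of single peaks turned at 8 peaks with column totals, Y39G10AR.24 (-1.15), C27H5.9 (-1.42), B0334.12 (-1.66), K11C4.6 (-1.48), Y24D9A.9 (-1.85), C27H6.5 (-1.77), ZK897.3 (-0.54) and F15H9.5 (-1.42). With DESeq2's size factors and TMM 4 turned, B0334.12 (-0.081 and -0.12), K11C4.6 (-0.073 and -0.11), Y24D9A.9 (-0.17 and -0.21) and C27H6.5 (-0.27 and -0.30), and ZK897.4 turned with edgeR (0.084) and DESeq2 (0.17). Leaving out library B turned 9 peaks, none of them called, F40G12.13 (0.10), F28C6.11 (0.015), B0412.6 (0.011), K11H12.13 (0.0024), F17C11.14 (0.11), Y53F4B.47 (0.16), C27H6.5 (-0.62), ZK897.3 (-0.23) and ZK897.4 (1.07), and leaving out library A turned K11C4.6 (-1.21). The cause was not tested. The settings on how much of the peak lies in the gene and on protein-coding hosts were chosen after seeing the data. Same-strand and opposite-strand members were not run, since the gene table has no strand. No paired analysis was possible because there is 1 input and the labels tie no column to a replicate number. Input depth limits most folds, with a median of 12.5 reads per peak.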
